A study of Mus musculus with 22 samples.

Results

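Gene expression in the uninjured spinal cord was compared between GFAP-IκBα-dn transgenic mice (IκBα-dn) and their wild-type (WT) littermates. The comparison rests on 3 of the 22 two-colour arrays of the study, each of which carried RNA of 1 naïve IκBα-dn mouse in 1 dye and RNA of 1 naïve WT mouse in the other. A further 6 arrays set the same naïve mice against mice with a contusion, 3 within WT and 3 within IκBα-dn, so that 9 arrays held a naïve mouse and each of the 6 naïve mice (3 per genotype) was measured on 2 arrays. All mice were adult females, 3 to 4 months old, on a C57BL/6 background. IκBα-dn mice were heterozygous offspring of transgenic males and WT females, and they carried a truncated, dominant negative IκBα under the promoter of GFAP, which drives expression mainly in astrocytes. WT littermates carried no transgene. RNA came from 1.5 cm of cord, so it pooled every cell type of the segment. In such bulk RNA fewer cells of a type and less RNA per cell cannot be told apart.

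NF-κB is a family of transcription factors that IκB proteins hold in the cytoplasm. Signals such as TNF or Toll-like receptor ligands activate the IKK kinase complex, which marks IκBα for degradation, and the freed NF-κB dimers enter the nucleus and switch on genes for cytokines, chemokines and adhesion molecules, among them IκBα itself. A truncated IκBα that cannot be degraded holds NF-κB back, and in astrocytes NF-κB is best known for its part in the inflammatory response to injury.

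All values are log2 ratios of IκBα-dn over WT, so that 1 is a doubling and -1 a halving. A linear model over 21 arrays gave each of 43379 probes a naïve difference with its standard error (SE), after subtraction of the probe's dye effect. The array left out carried conflicting labels and held no naïve mouse. Values on single arrays are given for the arrays IκBα-dn 3 over WT 1, IκBα-dn 2 over WT 2 and IκBα-dn 1 over WT 3, in that order. The fitted difference also draws on the 6 arrays that reach the naïve mice through injured ones, so it is not the mean of the 3. The deposited ratios carry no brightness, so it is not known which probes stood above background, and no absolute level can be given for a tissue marker. The direction of the ratios was checked on the arrays of 3 days after contusion over naïve cord, where 21 of 22 microglia and macrophage genes were higher after injury in WT mice and 19 of 22 in IκBα-dn mice.

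On 3 genes, 4 injured mice stood apart from their labels, and they are described before the results. In the naïve mice, the leading probes of Prm1, Lratd1 and Smc6 ran with the labelled genotype on all 3 arrays that held both genotypes. After injury they did not do so for the mice labelled WT 3 days 1, WT 3 weeks 1, WT 3 weeks 2 and IκBα-dn 6 weeks 2. The Prm1 log2 ratio was 4.74 for the mouse labelled WT 3 days 1 over naïve WT 1, and 3.60 for the mouse labelled WT 3 weeks 1 over naïve WT 2. It was 0.33 for the mouse labelled WT 6 weeks 1 over naïve WT 3. The mouse labelled WT 3 weeks 2 exceeded WT 3 days 2 by 3.59, and the mouse labelled IκBα-dn 6 weeks 2 lay below IκBα-dn 3 days 3 (-3.58). No mouse was moved to another group. Leaving out these 4 mice left 14 arrays, and the naïve result was then again 0 called probes, with 1164 probes at an unadjusted p under 0.05.

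No gene passed the test between naïve IκBα-dn and naïve WT cord. Of 43379 probes, 0 reached an adjusted p under 0.05 in limma (0%), and the smallest adjusted p was 1.00. At an unadjusted p under 0.05, 454 probes were higher in IκBα-dn mice (1.05%) and 736 were lower (1.7%), together 2.74% of probes. The differences were small throughout. Their SD over all probes was 0.17, against a median SE of 0.15, and 17 probes differed more than 2-fold, 5 higher and 12 lower. The median half-width of the 95% interval was 0.33, and for 95.9% of probes the whole interval lay within a 2-fold change in either direction. For 72.7% of probes it lay within 1.5-fold. Of all probes, 24.8% had 1 sign on all 3 arrays, and the correlations between them across probes were -0.19, -0.05 and 0.23 (n = 43379 probes, which are not independent replicates). On the first of the 3 arrays the dyes ran the other way round than on the other 2.

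The same model found a genotype difference 6 weeks after contusion. There 8653 probes (19.9%) passed the test, and the SD of the differences was 0.39. The change of the genotype difference from naïve cord to 6 weeks, tested as an interaction, was called for 3995 probes (9.21%), 1313 upward and 2682 downward. Without the 4 mice described above this count was 1735. From naïve cord to 3 days or to 3 weeks 0 probes were called, with 1451 and 626 at an unadjusted p under 0.05. For the change to 3 days 0 probes were also called without the 4 mice. Every WT mouse fitted at 3 weeks was among the 4, so the change to 3 weeks could not be fitted without them.

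**Figure D1:**
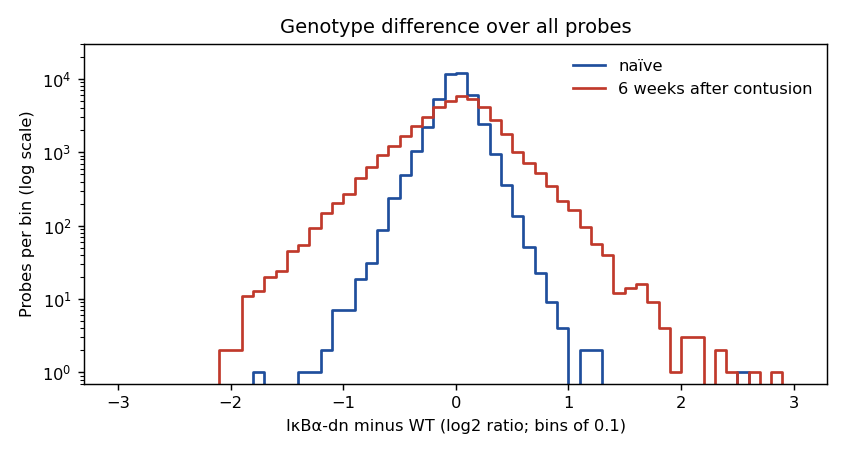
Distribution of the genotype difference over 43379 probes in naïve cord (blue) and 6 weeks after contusion (red). The horizontal axis is the log2 ratio of IκBα-dn over WT in bins of 0.1 and the vertical axis the number of probes per bin on a log scale. The naïve distribution (SD 0.17) is narrower than that at 6 weeks (SD 0.39), and its value farthest to the right, at 2.53, is Prm1.

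Prm1 (protamine 1, a protein that packs DNA in sperm) was the largest difference. The probe read 2.46, 2.30 and 2.59 on the 3 arrays, and the fitted difference was 2.53 ± 0.65 (SE), or 5.78-fold (95% interval 1.17 to 3.90 on the log2 scale, adjusted p = 1). All 3 IκBα-dn mice were thus above the WT mouse of their array, by amounts that differed little. It was also the 1 probe of 43379 that exceeded 2-fold on each of the 3 arrays. At the threshold of the study, a fold over 2 and a false discovery rate under 0.1% for the moderated F statistic over all 8 groups, 1939 probes passed the F statistic and 1 of these, Prm1, exceeded 2-fold in naïve cord. The F statistic includes the injured groups, so this count is not a test of the naïve difference. The study does not state which groups its own F statistic covered. It listed more genes than this 1 between naïve mice at its threshold, and the reason for the gap was not tested. The other 2 Prm1 probes gave 1.29 ± 0.53 and 0.47 ± 0.47. As background, expression cassettes built on the GFAP promoter often carry a piece of the protamine 1 gene as their 3′ end. Whether this transgene does is not given in the sources used here, and the part of the transgene in the Prm1 signal was not tested. No probe of the array is annotated as the truncated IκBα.

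On the arrays that set injured IκBα-dn against injured WT mice, Prm1 varied widely. The ratio was 3.87 and 3.78 on the 2 arrays at 3 days, -1.03 and -0.37 at 3 weeks, and 3.33, 0.86 and 4.04 at 6 weeks. Thus 4 of the 7 arrays lay above the naïve values and 3 below them, the latter being those with the mice labelled WT 3 weeks 1, WT 3 weeks 2 and IκBα-dn 6 weeks 2. The fitted difference was -0.68 ± 0.77 at 3 weeks, and its change from naïve cord to 6 weeks was 0.16 ± 0.89 (adjusted p = 0.957). Without the 4 mice the naïve difference was 2.38 ± 0.26, the difference at 3 days 3.94 ± 0.31 and that at 6 weeks 3.82 ± 0.30, given as values with no test because Prm1 chose the mice. Within IκBα-dn mice, Prm1 was higher after injury than in naïve cord on all 3 arrays that show it, by 1.57 at 3 days, 1.90 at 3 weeks and 2.87 at 6 weeks. On these arrays the median of the 12 Gfap probes was 0.45, 0.28 and 0.64.

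**Figure D2:**
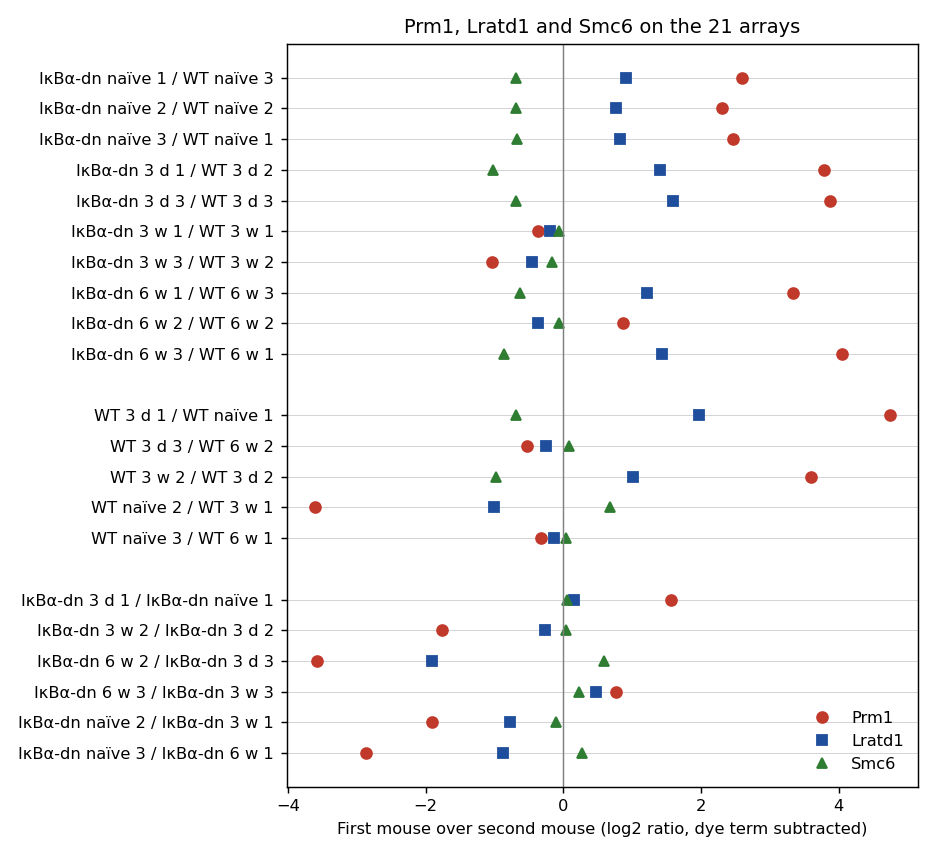
Prm1 (circles), Lratd1 (squares, the probe closest to Prm1) and Smc6 (triangles, the probe with the lowest p) on each of the 21 arrays. The horizontal axis is the log2 ratio of the first over the second mouse named, after subtraction of the dye effect. The upper block holds the arrays with both genotypes, where Prm1 sat between 2.30 and 2.59 in naïve mice, the middle block holds WT mice alone and the lower block IκBα-dn mice alone.

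Lratd1, a gene of the LRAT domain family, had the pattern closest to Prm1 over the 21 arrays (Pearson r = 0.97 and 0.95 for its 2 probes, the arrays sharing mice). In naïve cord 1 of its probes read 0.82, 0.77 and 0.91, with a fitted difference of 0.90 ± 0.34, and the other read 0.91, 0.55 and 0.61, with 0.79 ± 0.34. IκBα-dn was therefore above WT on all 3 arrays by both probes. Without the 4 mice these differences were 0.83 ± 0.13 and 0.72 ± 0.12 in naïve cord, 1.48 ± 0.16 and 1.42 ± 0.15 at 3 days, and 1.42 ± 0.15 and 1.40 ± 0.14 at 6 weeks. Lratd1 was among the genes by which these mice stood apart, so the smaller SEs and the values after injury follow in part from leaving them out and support nothing.

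Lratd1 lies on chromosome 12 in a row of genes of which several leaned 1 way on all 3 naïve arrays, a pattern picked out after the values were seen. In RefSeq gene order the row of measured genes runs Kcns3, Msgn1, Gen1, Smc6, Vsnl1, 4930511A02Rik, Cyria, Mycn, Ddx1, Nbas, Gm35725, Lratd1 and Trib2. Smc6, a subunit of the SMC5/6 complex that acts in DNA repair, was lower by all 3 of its probes (-0.75 ± 0.16, -0.59 ± 0.18 and -0.36 ± 0.14). The first of these read -0.67, -0.69 and -0.68 on the 3 arrays, a range of 0.02. Vsnl1, a neuronal calcium sensor, was lower by both of its probes (-0.46 ± 0.19 and -0.35 ± 0.17), and on all 3 arrays. In the other direction, Cyria, an inhibitor of Rac1 signalling, read 0.28, 0.60 and 0.58 with a fitted 0.44 ± 0.13. Mycn, the neuroblastoma proto-oncogene, gave 0.55 ± 0.15 by 1 probe and 0.09 ± 0.13 by the other. Nbas, which acts in transport between Golgi and endoplasmic reticulum, gave 0.37 ± 0.16 and 0.08 ± 0.42. At the ends of the row Kcns3 (0.02 ± 0.14) and Trib2 (-0.01 ± 0.12 and 0.06 ± 0.16) were near 0.

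Counting 1 probe a gene in windows of 10 neighbouring measured genes, 14731 windows of the genome held 0 genes at an unadjusted p under 0.05 and 3600 held 1. A count of 4 or 5 was found in 7 windows, and all 7 lay in or overlapped this row, with the highest count, 5 of 10, from Gen1 to Lratd1 and from Smc6 to Trib2. These windows overlap each other, and the count has no test. None of the genes passed the adjusted test, and the cause was not tested.

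**Figure D3:**
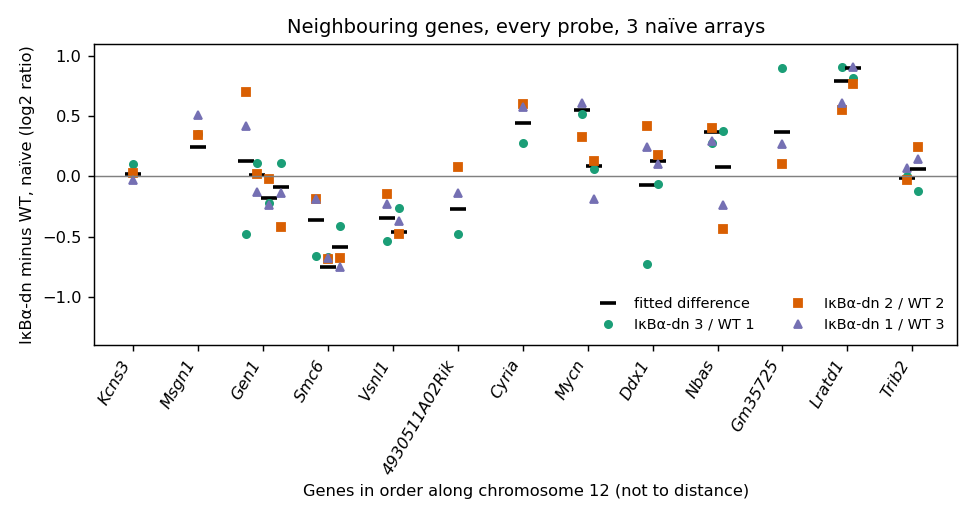
Naïve genotype difference of 13 neighbouring measured genes of chromosome 12, every probe. Genes stand in genome order along the horizontal axis, not at their distance. The vertical axis is the log2 ratio of IκBα-dn over WT, bars are fitted differences and symbols the 3 naïve arrays. Smc6 and Vsnl1 lie below 0 and Cyria and Lratd1 above 0 on all 3 arrays by every probe.

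Genes of the row took different courses on the arrays that held injured mice. Smc6 by its strongest probe read -0.68 and -1.02 at 3 days, -0.16 and -0.06 at 3 weeks, and -0.63, -0.06 and -0.86 at 6 weeks. The 3 values nearest 0 are again those of the arrays with the mice labelled WT 3 weeks 1, WT 3 weeks 2 and IκBα-dn 6 weeks 2. Cyria read 0.59, 0.51, 0.03, 0.07, 0.44, -0.03 and 0.43 in the same order and had its 3 smallest values on the same arrays. Other genes did not keep this pattern. The higher Nbas probe read 0.33 and 0.06 at 3 days, -0.13 and -0.11 at 3 weeks, and -0.27, -0.51 and -0.07 at 6 weeks, so that it was below 0 on 5 of 7 arrays. The higher Mycn probe read 0.28, 0.10, -0.69, -0.12, 0.70, -0.05 and 0.08. Vsnl1 by its lower probe read -0.39 and -0.93 at 3 days, 0.03 and -0.07 at 3 weeks, and -0.37, -0.62 and -1.32 at 6 weeks, and it was thus not near 0 for the mouse labelled IκBα-dn 6 weeks 2. Without the 4 mice the naïve differences were -0.71 ± 0.10 for the Smc6 probe, a gene by which these mice stood apart, and 0.50 ± 0.09 for Cyria, given as values with no test.

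Counting the lowest-numbered probe of each gene, and among genes with 1 sign on all 3 arrays, the 12 with the smallest p on the higher side were Plekha1, Rcvrn, Prm1, Olfr146, Olfr1179, Mycn, Tsks, Magef1, Wdsub1, Cnpy1, Kcne1 and Cyria. On the lower side they were Tatdn2, Irf3, Lmbr1l, Arhgap10, Vezt, Klhdc7a, Arrdc2, Vmn1r72, Car3, Adipor2, Mthfsd and Klf13. Tatdn2, a putative deoxyribonuclease, read -0.80, -0.42 and -0.59 (fitted -0.71 ± 0.14, adjusted p = 1). Irf3, the transcription factor that starts the type I interferon response, read -0.76, -0.26 and -0.48 by 1 probe (-0.51 ± 0.11, adjusted p = 1) but 0.21, -0.25 and -0.19 by its other probe (-0.07 ± 0.10). Plekha1, an adaptor that binds phosphoinositides, read 1.71, 0.67 and 0.25 (0.83 ± 0.18), while the other 2 of its 3 probes gave -0.08 and -0.01. Tsks, a substrate of testis-specific kinases, read evenly at 0.55, 0.47 and 0.54 (0.54 ± 0.15). The smallest p of all probes belonged to the second probe of Rbm11, an RNA-binding protein, which read 0.40, 0.51 and 1.18 (0.68 ± 0.12, adjusted p = 1), while the first read 0.48, 0.12 and 0.24 (0.27 ± 0.16). Of the 24, Olfr146, Olfr1179 and Vmn1r72 code for receptors of smell and pheromones that belong to large families of similar sequence.

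**Figure D4:**
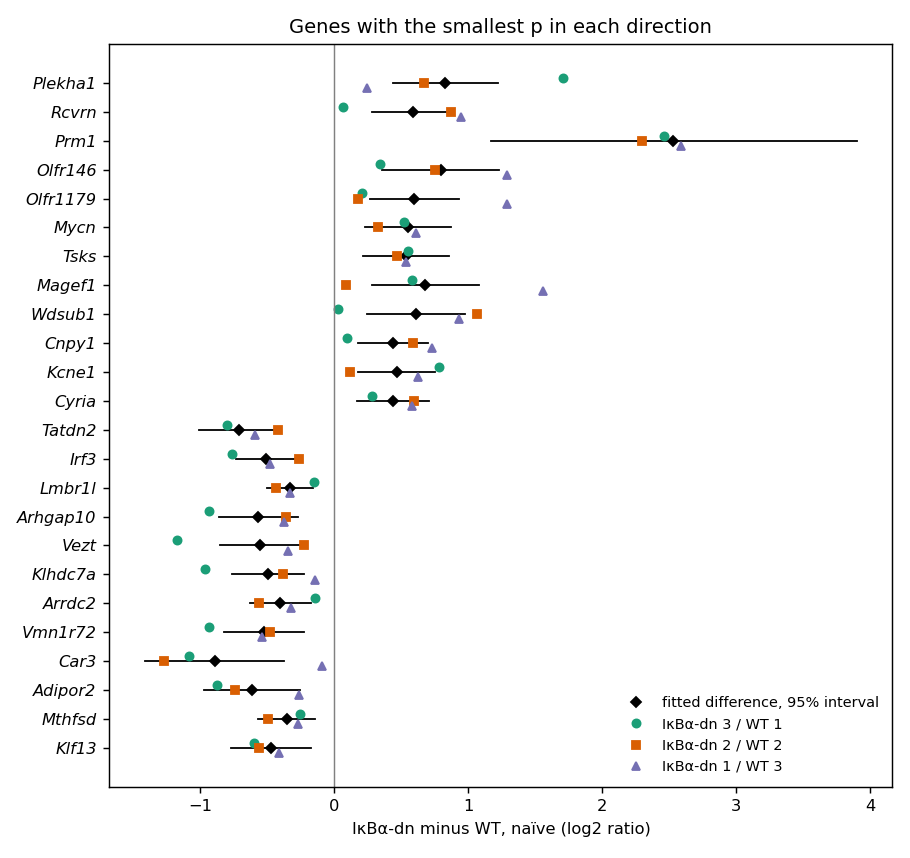
The 12 genes with the smallest p on each side of 0, among genes with 1 sign on all 3 naïve arrays. The horizontal axis is the log2 ratio of IκBα-dn over WT, diamonds with lines are fitted differences with 95% intervals and coloured symbols the 3 arrays. Prm1 lies at 2.53 and the other genes between -0.89 and 0.83.

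On the 7 arrays that set injured IκBα-dn against injured WT mice, none of which held a naïve mouse, 7 of the 24 genes (29.2%) kept the sign of their naïve difference on at least 6 arrays. The share was 14% among all 4724 genes with 1 sign on the 3 naïve arrays, and no test was made of this difference. The fit whose p chose the 24 genes also draws on these 7 arrays, while the 4724 were chosen by sign alone. The shares are thus not alike in their choice, and the 7 arrays are no independent check. Irf3 was lower on 7 of 7 (from -0.51 to -0.08) by the probe named first, while its other probe read between -0.09 and -0.01 on the 4 arrays at 3 days and 3 weeks and 0.51, 0.56 and 0.42 at 6 weeks. Kcne1, a potassium channel subunit, was higher on 7 of 7 (from 0.02 to 0.39) by 1 probe, and its other probe gave a naïve difference of 0.04. Tatdn2 was lower on both arrays at 3 days (-0.89 and -0.46) and both at 3 weeks (-0.44 and -0.39), and higher on the 3 at 6 weeks (0.04, 0.23 and 0.34). Lmbr1l, a membrane protein of lymphocytes, followed the same order, from -0.27 and -0.25 at 3 days to 0.19, 0.28 and 0.31 at 6 weeks. Rcvrn, Magef1 and Arrdc2 had the naïve sign on 1 of 7 arrays.

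By fold rather than by p, and again among genes with 1 sign on all 3 arrays, Prm1 (2.53), Musk (0.85 ± 0.43) and Cldn1 (0.83 ± 0.26, other probe 0.20) led on the higher side and Vps33a (-1.30 ± 0.68), Olfr1195 (-1.02 ± 0.51) and Ear3 (-0.94 ± 0.49) on the lower. Vps33a, a subunit of the tethering complexes of lysosomes, rested on 1 array: it read -0.18, -5.18 and -0.25, and its other probe gave 0.07. Olfr1195 was even in naïve cord (-1.55, -1.35 and -0.96) and lay below 0 on 6 of the 7 arrays of injured mice.

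Among the NF-κB subunits, inhibitors and kinases, 18 of 21 listed genes were measured and 1 of 18 reached an unadjusted p under 0.05 (5.56%, against 2.43% of all genes with 1 probe each, 1.27% higher and 1.15% lower, which is the background for each list that follows). That gene was Nfkbia, which codes for IκBα and is itself a target of NF-κB. Its single probe read -0.11, -0.18 and -0.34, with a fitted difference of -0.24 ± 0.10 (95% interval -0.45 to -0.03, adjusted p = 1). It was lower in IκBα-dn mice on all 3 arrays. Since this probe is the only one of the gene, endogenous and truncated IκBα mRNA could not be told apart with it. The list median was 0.02, against 0.01 for all 19087 genes. The DNA-binding subunits Rela (0.02 ± 0.19), Relb (0.02 ± 0.12), Rel (0.30 ± 0.20) and Nfkb2 (-0.09 ± 0.11) had intervals that included 0, as had the kinases Ikbkb (-0.01 ± 0.08) and Map3k14 (0.00 ± 0.12) and the feedback inhibitor Tnfaip3 (0.14 ± 0.13). For all 18 genes the 95% interval lay within a 2-fold change in either direction. These intervals are for RNA of the whole segment and set no bound on a change within astrocytes.

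The promoter of Nfkbia is shown as that of a target of NF-κB, the factor that truncated IκBα holds back. It spans chr12:55492598-55492897 on the minus strand (RefSeq, GRCm38.p6), 250 bases before to 50 after the start of the gene, and capitals mark its 1 match to the κB consensus motif, searched on both strands, which begins 29 bases before the start.

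Nfkbia promoter: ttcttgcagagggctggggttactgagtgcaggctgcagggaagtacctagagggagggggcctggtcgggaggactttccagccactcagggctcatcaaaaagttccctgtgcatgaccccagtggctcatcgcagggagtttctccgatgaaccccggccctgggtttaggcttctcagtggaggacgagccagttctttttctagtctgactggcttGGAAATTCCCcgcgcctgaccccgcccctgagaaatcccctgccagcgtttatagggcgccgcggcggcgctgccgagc

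Such a match was found in 8.46% of all 32851 promoters of this length, and in 9.55% of the 27025 genes with a promoter. Of the 21 genes with a promoter in the list of NF-κB target genes of glia, 11 held it (52.4%). Over all genes, the naïve difference did not set those with a match apart in its centre: the median was 0.01 for 1705 genes with a match and 0.01 for 13542 without, and the values from the 5th to the 95th percentile ran from -0.25 to 0.27 and from -0.24 to 0.29. Unadjusted p under 0.05 was reached upward by 1.29% and 1.27%, and downward by 1.7% and 1.15%.

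NF-κB target genes known from glia followed the same course. Of 30 listed, 28 were measured, with a list median of 0.08. By the probe that stood for each gene, 0 were higher at an unadjusted p under 0.05 and 1, Nfkbia, was lower. Csf2 was higher at that level by 1 of its 10 probes, which ran from -0.12 to 0.37. The chemokine genes Ccl2 (0.27 ± 0.34; 0.55, 0.03 and 0.19 on the 3 arrays) and Cxcl10 (0.29 ± 0.51; 1.02, -0.21 and 0.66) and the adhesion molecule Icam1 (0.05 ± 0.32; 0.22, -0.49 and -0.08) spread more between arrays than they differed between genotypes. Intervals within 2-fold were obtained for 21 of the 28. Toll-like receptors and adaptors (19 measured, 0 at an unadjusted p under 0.05) had a median of 0.04; among them Tlr4, the receptor of lipopolysaccharide, gave 0.36 ± 0.26 by 1 probe and between -0.17 and 0.49 over all 11. In the interferon-stimulated list (24 measured, median -0.03) Stat2 read -0.36, -0.30 and -0.15 (-0.30 ± 0.14) and Ifit2 gave -0.36 ± 0.16 by 1 probe and -0.01 by the other.

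No astrocyte gene was called. By the probe that stood for each gene, 0 of 21 measured genes of astrocyte identity reached an unadjusted p under 0.05. The median was 0.00, the range ran from -0.29 to 0.19, and all 21 intervals lay within 2-fold. Gfap, the intermediate filament of astrocytes, whose promoter drives the transgene, gave a median of 0.01 over its 12 probes and a range from -0.29 to 0.08, with the lowest from the probe that stood for the gene (-0.29 ± 0.29; 0.00, -0.51 and -0.77). The glutamate transporters Slc1a2 and Slc1a3 gave -0.09 and 0.01, and the water channel Aqp4 -0.20 ± 0.19. Gja1, the gap junction protein of astrocytes, gave 0.10 ± 0.09, with 0.10 to 0.25 over its 10 probes (median 0.18). Of these 10 probes, 1 was higher at an unadjusted p under 0.05. In the reactive astrocyte list (28 measured) 14 genes were above and 14 below 0. Its median was 0.11 on the first array and -0.21 and -0.19 on the others, so the arrays did not share a direction. The first array is also that with the dyes the other way round.

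No microglia or macrophage gene was called. In the fit 17 of 22 lay above 0, against 54.1% of all genes, with a median of 0.09, but the median on single arrays was 0.05, 0.09 and -0.10, and 0 of 22 reached an unadjusted p under 0.05. Itgam, which codes for CD11b, read 0.17, 0.22 and 0.19 (0.22 ± 0.16, adjusted p = 1; its other probe 0.08). By this probe it was higher in IκBα-dn mice on all 3 arrays, by an even amount, and the 95% interval of the fit included 0 (-0.11 to 0.55). The other probe read 0.23, -0.08 and 0.05, so it had neither 1 sign nor an even amount. The homeostatic markers P2ry12 (0.14), Cx3cr1 (0.00) and Tmem119 (0.00), and complement C1qa (0.16), were near 0.

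Oligodendrocyte and myelin genes gave a median of 0.02 over 23 genes and precursor genes -0.01 over 18, with every interval within 2-fold. Olig2, which marks the whole lineage, read -0.09, 0.17 and 0.06 (-0.01 ± 0.10), and Cnp, a myelin enzyme, -0.06, 0.13 and -0.14 (-0.04 ± 0.12). Mag, a protein of the innermost myelin layer, was lower on all 3 arrays (-0.25, -0.52 and -0.33; -0.30 ± 0.11, adjusted p = 1) by 1 probe, and its other probe gave -0.03. Among the further genes the study follows after injury, Cxcl12 gave -0.26 ± 0.17, its receptor Cxcr4 0.09 ± 0.19, Tnfrsf1b (TNF receptor 2) 0.11 ± 0.21, Tcf7l2 -0.01 ± 0.10 and Lingo1 -0.06 ± 0.16. Of the 27 measured genes of that list, 0 were higher and 1 lower at an unadjusted p under 0.05.

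Neuronal genes lay slightly below 0. Of 23, 19 were negative, against 8761 of all 19087 genes, with a median of -0.10 and array medians of -0.09, -0.07 and -0.06. By the probe that stood for each gene, 0 reached an unadjusted p under 0.05. The lowest p belonged to Vsnl1 of the chromosome 12 row, and its other probe (-0.46 ± 0.19) did reach that level (limma, unadjusted p = 0.0263). Trh, the precursor of thyrotropin-releasing hormone, was the spinal neuropeptide with the smallest p and read 0.26, 0.48 and 0.27 (0.32 ± 0.11, adjusted p = 1). Sst (somatostatin) read -0.20, -0.24 and -0.43 (-0.26 ± 0.12, with -0.26 to -0.06 over 10 probes). The Hox genes, which mark the level of the cord, had a median of 0.01 over 29 genes and 0 at an unadjusted p under 0.05.

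Lists of tissues that border the cord, and of neutrophils, differed between the arrays. Meningeal fibroblast and matrix genes had array medians of 0.09, -0.61 and -0.04. Col1a1 (collagen I) read 0.11, -1.94 and 0.13, Lum (lumican) 0.07, -2.58 and -0.19, and Foxc2 -0.24, -3.19 and 0.30. The mouse IκBα-dn 2 was thus below WT 2 for these genes, while the other pairs differed little; without WT naïve mouse 2 the list median moved from -0.19 to 0.00, and without IκBα-dn naïve mouse 2 to -0.10. Egr2, a factor of myelinating Schwann cells, behaved alike (0.22, -3.10 and 0.15). Neutrophil genes moved in opposite directions on 2 arrays, with array medians of 0.02, -0.98 and 0.70. S100a8, a calcium-binding protein of neutrophils, read 0.24, -1.85 and 2.68. In the list of skeletal muscle and fat 4 of 16 genes were lower at an unadjusted p under 0.05 (25%, against 1.15% of all genes). They were Car3 (-0.89 ± 0.25; -1.08, -1.27 and -0.09), Adipoq (-0.70 ± 0.27; -0.40, -1.30 and -0.12), Plin1 (-0.50, -0.86 and -0.10; -0.40 ± 0.17) and Myl1 (-0.59 ± 0.25; -0.01, -1.51 and -0.27). Of the 16 genes 6 lay above 0, with values up to 0.27, and the list median was -0.11. The other probes of Car3 and Myl1 gave -0.13 and 0.29. The part of such tissue in other differences was not tested.

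Vessel genes moved with the same array as the meninges. Pericyte and mural genes had array medians of -0.10, -0.31 and 0.00, and 2 of 15 (13.3%) were lower at an unadjusted p under 0.05, the potassium channel subunits Kcnj8 (-0.13, -0.67 and -0.02; -0.28 ± 0.12) and Abcc9 (-0.33 ± 0.15). Of 25 endothelial genes 1 was lower, Emcn (endomucin; -0.24, -0.86 and -0.02; -0.40 ± 0.18), with array medians of 0.09, -0.33 and 0.02. Both groups thus took their lowest values from the array of IκBα-dn 2 over WT 2. Genes that glucocorticoids induce had a median of -0.18 (0.04, -0.41 and -0.14 on the arrays), with 1 of 17, Nfkbia, at an unadjusted p under 0.05. Per1, a clock gene that glucocorticoids also raise, read 0.01, -0.41 and -0.43 (-0.23 ± 0.11).

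The lists of chemokines, cytokines, neurotrophic factors, guidance molecules and proteoglycans had medians between -0.02 and 0.04. Of 53 chemokines and receptors 2 were higher at an unadjusted p under 0.05, the neutrophil receptor Cxcr2 (-0.17, 0.60 and 0.78; 0.41 ± 0.17, other probe -0.10) and Cxcl15 (-0.26, 1.11 and 0.33; 0.49 ± 0.21, other probe 0.05), and neither had 1 sign on the 3 arrays. Of 40 cytokines and receptors 1 was higher, Il15 (0.55, 0.05 and 0.00; 0.33 ± 0.15, other probe 0.01). Gdnf, a survival factor of motor neurons, read -0.16, 1.05 and 1.08 (0.58 ± 0.26). Among 37 genes of axon guidance and growth inhibition 2 were lower, Mag and the semaphorin Sema3b, which read -0.39, -0.41 and -0.15 (-0.31 ± 0.12). Vcan (versican), 1 of 18 proteoglycan and tenascin genes, read 0.58, 0.16 and 0.66 (0.42 ± 0.19) by 1 of 4 probes, of which the lowest gave -0.04. The subunits of oxidative phosphorylation ran from -0.26 to 0.08 over 24 genes, with a median of -0.05. Of these 19 lay below 0, against 8761 of all 19087 genes, and 0 reached an unadjusted p under 0.05. The array medians were 0.02, -0.05 and -0.14, so the arrays did not share a direction. In the ependymal list Pltp, a lipid transfer protein, was lower on all 3 arrays (-0.14, -0.33 and -0.29; -0.31 ± 0.11).

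**Figure D5:**
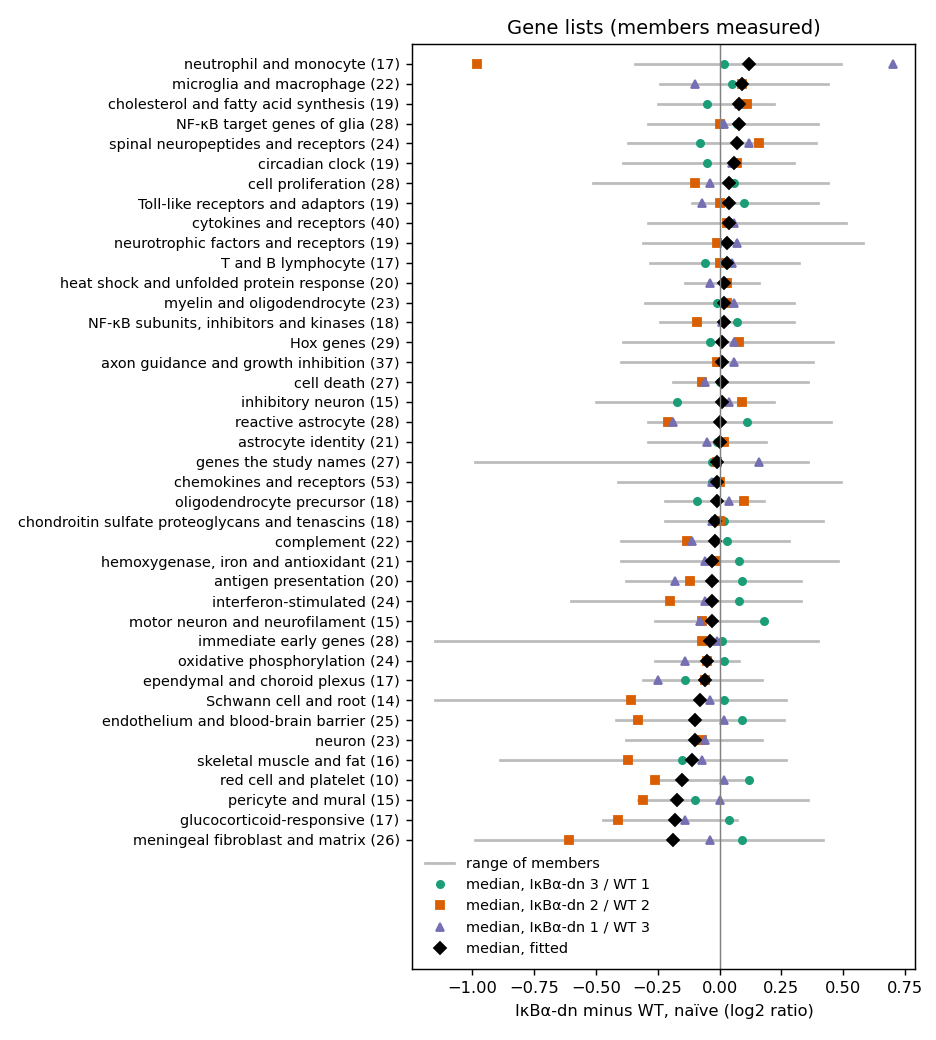
Median naïve genotype difference of each of 40 gene lists, with the number of measured members in brackets. The horizontal axis is the log2 ratio of IκBα-dn over WT, diamonds are medians of fitted differences, grey lines the range of members, and coloured symbols the medians on the 3 arrays (circle IκBα-dn 3 over WT 1, square IκBα-dn 2 over WT 2, triangle IκBα-dn 1 over WT 3). List medians ran from -0.19 to 0.12, and the neutrophil and meningeal lists had the widest spread between arrays.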

How the data were processed

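RNA of female mice was hybridised in pairs to 22 Agilent Whole Mouse Genome arrays, of which the 21 fitted held 23 mice. The authors extracted spots by quality criteria, applied Lowess normalization within and quantile normalization between arrays, and deposited log2 ratios of Cy5 over Cy3 for 43379 probes. The mean of each array was 0, the medians ran from -0.08 to 0.05 and the SDs from 0.37 to 0.74. No intensities were used here, so detection is unknown, and the number of arrays limits the precision.

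Mice were grouped by the labels of both dyes. An array whose labels conflict was left out. A linear model in limma 3.58.1 (R 4.3.3) had 1 term for each of 8 groups (Cy5 minus Cy3) and a dye term, and took the 2 arrays of a mouse as correlated (share of the variance between mice 0.43, residual df 13). It gave the naïve difference and its change after injury for every probe, with Benjamini-Hochberg adjustment over all 43379 probes and a threshold of 0.05. The script was tested on simulated data. Single-array values had the dye term subtracted. Nothing states more than that the mice were separate animals. The p-values rest on a spread pooled over all 8 groups and 21 arrays, between mice and between arrays. That spread includes the 4 injured mice that stood apart from their labels, and it is not the spread between naïve mice alone. The animals of each array are paired by the design, and mouse numbers match on 1 of the 3 naïve arrays.

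Symbols came from the platform annotation (33653 probes with 1 symbol, 56 with several, 9670 with none) and were updated through RefSeq (GRCm38.p6). A gene was represented by its lowest-numbered probe with that symbol alone, 19087 genes in all. Counts of list genes use this probe alone, and other probes are given for part of the genes. Of 872 genes in 40 lists, 805 were measured. The members and lists were chosen with earlier results of these data known. Named were the 12 genes of smallest p in each direction with 1 sign on the 3 arrays, the 3 largest folds in each direction under the same condition, the genes the study names, the NF-κB genes, and the 3 members of smallest p in each other list. A further rule, on genes called in the difference averaged over naïve cord, 3 days and 3 weeks, named none, since 0 were called (1495 at an unadjusted p under 0.05). Lratd1 and its neighbours, Rbm11, Slc1a2, Slc1a3, P2ry12, Cx3cr1, Tmem119, C1qa, Col1a1, Lum, S100a8, Plin1 and Erp27 were chosen after their values were seen.

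Alternatives changed the dye term, the correlation, the arrays used, the scaling, the prior, the probes used and the mice left out.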

Additional observations from a re-analysis of the deposited data

Results flagged for a closer look

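Of 73 named genes tested, 16 had a genotype difference that changed from naïve cord to 6 weeks after contusion, by the interaction term of the limma model (adjusted p under 0.05 over all probes, as for 9.21% of them). The change was upward in 13 and downward in 3, against 1313 upward and 2682 downward over all probes. Genes named for a large naïve difference share that estimate with the change, which favours a change toward the other sign. Without the 4 mice that stood apart from their labels, the change was called for 1735 probes, against 3995 with them. The 16 genes were not counted again without these mice.

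Among the NF-κB genes, Nfkbia changed by 0.69 ± 0.14 (SE; -0.24 naïve, 0.45 at 6 weeks, adjusted p = 0.00461). Without the 4 mice its difference was -0.23 ± 0.10 in naïve cord and 0.30 ± 0.11 at 6 weeks. The subunit Nfkb2 changed by 0.72 ± 0.16 from -0.09, and Relb by 0.58 ± 0.17 from 0.02. Cyld, a deubiquitinase that restrains the pathway, changed by -0.53 ± 0.14 from 0.01. Of the genes the study follows, the chemokine Cxcl12 changed by 1.30 ± 0.23 from -0.26 to 1.04. The Wnt effector Tcf7l2 changed by 0.71 ± 0.14, the integrin subunit Itga11 by 0.90 ± 0.25 and Lingo1, an inhibitor of myelination, by -0.94 ± 0.22. Itga11 is counted here because the study's listed entry for CD11b maps to it. Itgam, which codes for CD11b, changed by 0.27 ± 0.22 and was not called (limma, adjusted p = 0.543).

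Of the genes with the smallest naïve p, 7 that were lower in naïve IκBα-dn mice changed upward. The change was 0.99 ± 0.19 for Tatdn2, 0.61 ± 0.11 for Lmbr1l, 1.21 ± 0.19 for Arhgap10 and 0.80 ± 0.18 for Klhdc7a. It was 0.60 ± 0.15 for Arrdc2, 1.56 ± 0.34 for Car3 and 0.54 ± 0.14 for Mthfsd. Magef1, which was higher in naïve IκBα-dn mice, changed by -1.13 ± 0.26.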

How the results depend on the processing

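The naïve comparison gave 0 called probes under 20 of 21 alternatives, those without any 1 naïve mouse included. Without the 3 arrays that held both naïve groups 1 probe was called, Erp27 (1.37, adjusted p = 0.0321, against 0.38 with them). The count at an unadjusted p under 0.05, 1190 with all 21 arrays, was 1959 with arrays taken as independent, 1978 with a dye term for each array number, 2410 without the 3 arrays and 2148 with arrays scaled to a common spread. It was 444 of 19087 genes with the probes of a gene averaged, 580 of the 21689 probes with the larger spread, and 4380 with the 3 arrays alone. That fit was chosen after seeing the data and has 1 residual degree of freedom, and Prm1 led it (2.46 ± 0.11, adjusted p = 0.268). Leaving out 1 naïve mouse at a time gave 1188 to 1716. With the replicate block the count was 1227, and the labels give no sign that equal mouse numbers mark a shared litter or day.

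The change from naïve cord to 6 weeks was called for 6630 probes with arrays as independent, 1966 without the dye term, 1074 with the 10 arrays of both genotypes alone and 1735 without the 4 mice, an alternative chosen after seeing the data. The mean difference over all 4 times was called for 245 probes, against 0 without the dye term, 4 with the replicate block, 0 with the 10 arrays alone and 154 with the conflicting array read as 6 weeks against 3 days. The cause of these shifts was not tested.

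Over the 21 alternatives, 3397 of 3558 values of 172 named genes kept their sign and 161 took the other, and 0 were called. Among the 24 genes of smallest p, Klf13 took the other sign, at 0.05 with its probes averaged. Vps33a stood at 0.27 without the 3 arrays.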

Other observations

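Further values concern Prm1 over all 21 arrays, those of the naïve comparison included, and on arrays with mice of 1 genotype. Over the 21 arrays the probes that followed Prm1 most closely after Lratd1 were its own other probes (Pearson r = 0.94 and 0.89), 2310039H08Rik (0.89), Cox16 (0.87 and 0.86 by 2 probes), Tln1 (0.86) and Nudt21 (0.86), where arrays share mice and no test was made. The naïve differences of these 4 genes, Prm1 aside, were between 0.12 and 0.26. Cox16, an assembly factor of the respiratory chain, gave 0.20 and 0.13. Prm1 in the mouse labelled IκBα-dn 3 weeks 2 lay below IκBα-dn 3 days 2 (-1.76), and in IκBα-dn 6 weeks 3 above IκBα-dn 3 weeks 3 (0.77).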
